A study of Sus scrofa with 2 samples.

Results

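The genes described here encode the proteasome and the ubiquitin conjugating enzymes of pig skeletal muscle. They were chosen by name: an entry of the deposited table belonged to them if its Ensembl pig gene identifier had a symbol that begins with PSMA to PSMG and a digit, or with UBE2. The name rule itself uses no measured value. Of 27987 entries, 44 matched, namely 27 proteasome genes, 16 UBE2 genes and PSMC3IP, which shares the letters of PSMC3 but is a meiotic recombination factor and no proteasome subunit. A further 32 identifiers with such symbols were not analysed here, among them those of PSMA2, PSMA4, PSMB1, PSMC4, PSMD2, UBE2B and UBE2D3.

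The tissue was longissimus dorsi, the long back muscle, of crossbred barrows (castrated males) from Duroc boars and Yorkshire-Landrace sows. The labels give 16 pigs of 79.0 ± 1.5 kg from 8 litters, 8 kept at 22 °C and 8 at 30 °C for 21 days, and no age. Messenger RNA was measured in 2 libraries, 1 for the control arm at 22 °C and 1 for the heat arm at 30 °C. The sources used here do not say whether 1 pig or several went into each library. With 1 library per arm there is no spread between replicates and no test across pigs, so an effect of temperature and one of the animals or the preparation cannot be told apart in any difference below.

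Cells mark proteins for breakdown with ubiquitin, a small protein that an E1 enzyme activates, an E2 (conjugating) enzyme carries and an E3 ligase helps to attach. The proteasome then degrades the tagged protein. Its 20S core is a barrel of PSMA and PSMB rings with the protease sites inside, and its 19S cap, made of PSMC and PSMD subunits, binds the tag, removes it and unfolds the substrate. In skeletal muscle this pathway breaks down myofibrillar proteins, and its genes are well known from studies of fasting and atrophy.

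Levels are RPKM, a read count corrected for gene length and for library size, so genes can be set side by side; 22 °C and 30 °C name the control and the heat library. The control library held 23608242 reads and the heat library 22863584, recovered from the deposited values. A difference is given as the RPKM ratio, heat over control, with a 95% counting interval (Clopper-Pearson) from the recovered whole reads, and as a log2 ratio, log2((heat RPKM + 1)/(control RPKM + 1)). The reads are the fewest that fit the values, so the intervals can be too wide. They can also be too narrow, since the libraries were made with PCR and reads are not independent molecules. The intervals cover counting error only, not differences between pigs. The comparison used the 13191 entries whose mean RPKM reached 1, of which 95% had a log2 ratio between -0.57 and 0.66, around a median of 0.05. Of the 44 members, 37 passed that filter, and each had a recovered pair of reads, from at least 45 to at least 5290 in the control library. The fibre genes ACTA1, MYL1, MYL11, DES and NEB were all abundant and summed to 112349 and 108009 RPKM. Markers of other cell types were measured too. The 7 leukocyte markers found of 10 summed to 36.1 RPKM in both libraries but did not move together. CCL5, the most abundant, stood at 22.6 and 18.3 RPKM, a ratio of 0.813 (0.682 to 0.968). LYZ stood at 1.09 and 3.29 RPKM, a ratio of 3.02 (1.89 to 4.96), and CD68 at 3.61 and 5.36, a ratio of 1.49 (1.11 to 1.99). By sum, 3 of 5 endothelial markers came to 121 and 138, 4 of 5 fibroblast markers to 417 and 379, and 2 of 4 adipocyte markers to 17.6 and 10.1. The endothelial and fibroblast markers did not all move together. PECAM1 stood at 111 and 127 RPKM and TEK at 5.37 and 6.67, but KDR at 5.09 and 4.63. COL1A2 stood at 203 and 164 RPKM, LUM at 24.2 and 22.0 and PDGFRA at 3.94 and 2.92, but DCN at 186 and 190. Of 3 red blood cell markers 2 were found, HBB at 89.0 and 111.7 RPKM, a ratio of 1.25 (1.17 to 1.34), and ALAS2 at 0.432 and 1.43. No marker found was at 0 in either library, and the part of such cells in the differences below was not tested. In whole tissue, fewer cells of a type and less RNA per cell cannot be told apart.

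The 20S core was represented by 4 abundant genes, which differed little between the libraries. PSMA1, PSMA3 and PSMA5 encode subunits of the outer rings, whose tails gate the entry to the barrel. PSMA1 (ENSSSCG00000013391) stood at 38.4 RPKM at 22 °C and 38.1 at 30 °C, a ratio of 0.991 (0.913 to 1.08). PSMA3 stood at 38.3 and 40.6 RPKM, a ratio of 1.06 (1.002 to 1.12). PSMA5 stood at 49.1 and 54.2 RPKM, a ratio of 1.104 (1.02 to 1.197). The outer-ring genes thus lay within 1.28-fold of each other in the control library and 1.42-fold in the heat library. PSMB7 (ENSSSCG00000005590), the inner-ring subunit with trypsin-like activity, was more abundant, at 82.6 and 80.0 RPKM, a ratio of 0.969 (0.910 to 1.03). Summed over these 4 genes, the 20S level was 208 RPKM at 22 °C and 213 at 30 °C. PSMA8, the outer-ring subunit of the testis, was listed at 0 in both libraries.

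**Figure D1:**
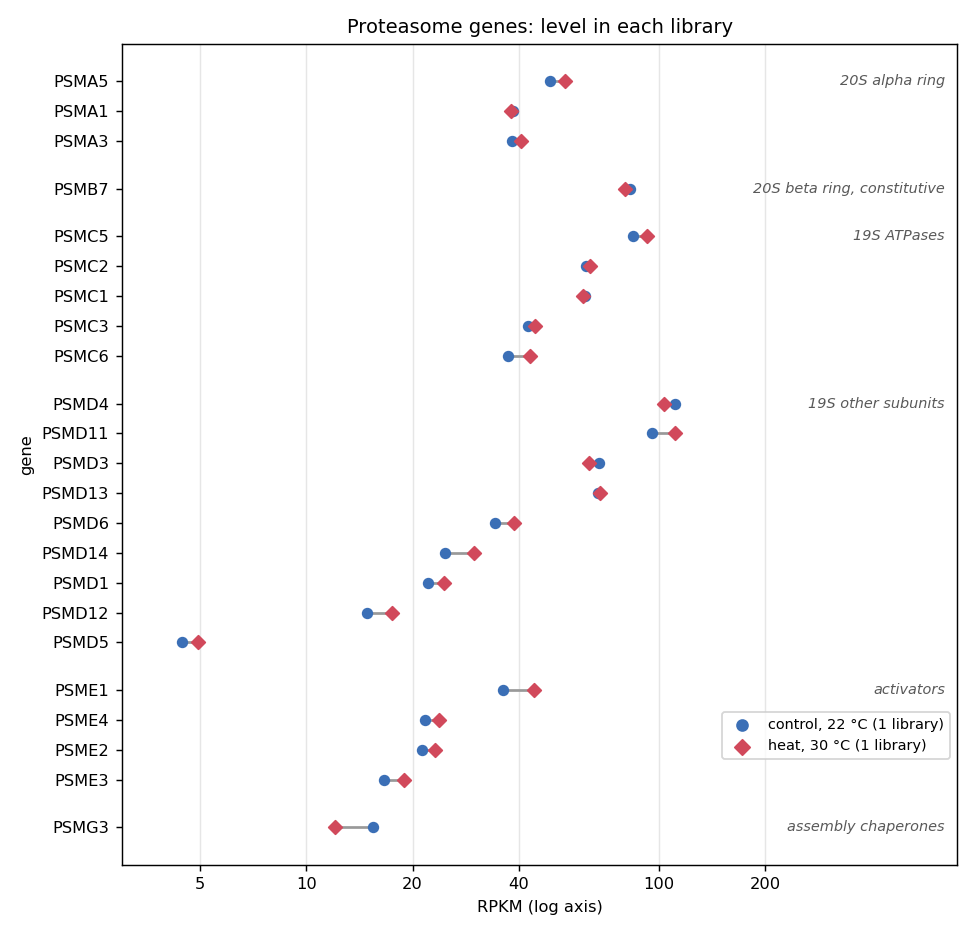
RPKM (log axis) of the 23 proteasome genes whose mean RPKM reached 1, in the control library (blue circle) and the heat library (red diamond), by structural group. The distance between genes, from 4.44 RPKM for PSMD5 to 111 for PSMD4 in the control library, is far larger than the distance between the libraries for any gene.

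The 5 ATPases of the 19S cap form, with PSMC4 (not analysed here), the ring that unfolds substrates and threads them into the core. PSMC5 and PSMC6 were higher in the heat library beyond counting error (40%, against 20.1% of all genes). The intervals of PSMC1, PSMC2 and PSMC3 held 1. PSMC5 (ENSSSCG00000017287) was the most abundant of them, at 84.3 RPKM at 22 °C and 92.5 at 30 °C, a ratio of 1.097 (1.06 to 1.14). PSMC6 (ENSSSCG00000005038) was the least abundant, at 37.2 and 43.1 RPKM, with the highest ratio of the ring, 1.16 (1.08 to 1.25). The other members stayed close to equal. PSMC1 was at 61.6 and 60.9 RPKM (ratio 0.989), PSMC2 at 62.2 and 63.6 (1.02) and PSMC3 at 42.5 and 44.4 (1.04). Ring partners that assemble in equal numbers thus spanned 2.27-fold in RPKM in the control library and 2.14-fold in the heat library.

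The PSMD genes, the non-ATPase part of the cap, moved in both directions. The interval lay above 1 for PSMD1, PSMD6, PSMD11, PSMD12 and PSMD14 (55.6%, against 20.1% of all genes). It lay below 1 for PSMD3 (11.1%, against 10.2%). Against the median ratio of all genes, 1.0425, it lay above for PSMD11 and PSMD12 alone (22.2%, against 14.0%). PSMD14 (ENSSSCG00000015892), the deubiquitinase that cuts the ubiquitin chain off the substrate, stood at 24.7 RPKM at 22 °C and 29.8 at 30 °C, a ratio of 1.21 (1.01 to 1.44). PSMD12 (ENSSSCG00000017273), a scaffold of the lid that holds the deubiquitinase, stood at 14.8 and 17.5 RPKM, a ratio of 1.18 (1.06 to 1.31). PSMD11 (ENSSSCG00000017731), the lid subunit that clamps the cap onto the core, stood at 95.4 and 111 RPKM, a ratio of 1.16 (1.09 to 1.24). It was second in abundance among proteasome genes in the control library and first in the heat library. The lid subunit PSMD6 stood at 34.2 and 38.8 RPKM (ratio 1.13), and PSMD1, the large platform on which ubiquitin receptors dock, at 22.2 and 24.5 (1.11).

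For PSMD4, PSMD5 and PSMD13 the interval held 1, and for PSMD3 it lay below 1. PSMD4 (ENSSSCG00000006628), a ubiquitin receptor of the cap, was the most abundant proteasome gene of the control library. It stood at 111 RPKM there and 103 at 30 °C, a ratio of 0.932 (0.819 to 1.06). This interval rests on at least 501 and 452 reads, which imply a gene of only 192 bp, so it can be wider than the true counting error. PSMD3 (ENSSSCG00000017489), another lid scaffold, stood at 67.5 and 63.3 RPKM, a ratio of 0.938 (0.894 to 0.984). The lid subunit PSMD13 stood at 67.2 and 68.0 RPKM, a ratio of 1.01 (0.954 to 1.07). PSMD5, a chaperone of cap assembly that leaves the finished particle, was the least abundant, at 4.44 and 4.95 RPKM, a ratio of 1.11 (0.896 to 1.38). Among the lid scaffolds, the interval thus lay above 1 for PSMD6, PSMD11 and PSMD12, lay below 1 for PSMD3 and held 1 for PSMD13. Over the 13 cap subunits without PSMD5, the SD of log2 RPKM between genes was 0.88 at 22 °C and 0.81 at 30 °C. PSMD4 was 7.46 times as abundant as PSMD12 in the control library and 5.89 times in the heat library.

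All 4 activators, alternative caps of the core, had a log2 ratio above 0, against 58.8% of all genes compared. The interval lay above the median RPKM ratio of all genes, 1.04, for PSME1 and PSME4 (50%, against 14.0% of all genes). PSME1 (ENSSSCG00000002006) and PSME2 form the interferon-inducible ring that widens the peptide supply for antigen presentation. PSME1 had the highest log2 ratio of all proteasome genes, 0.29, from 36.0 RPKM at 22 °C to 44.3 at 30 °C, a ratio of 1.23 (1.12 to 1.35). PSME2, its partner, stood at 21.2 and 23.2 RPKM, a ratio of 1.09 (0.965 to 1.23). The level of PSME1 was 1.695 times that of PSME2 in the control library and 1.91 times in the heat library. PSME3, the nuclear activator, stood at 16.6 and 18.97 RPKM, a ratio of 1.15 (1.01 to 1.304). PSME4, the large activator that caps the core as a single chain, stood at 21.7 and 23.7 RPKM, a ratio of 1.09 (1.04 to 1.15). PSMG3, a chaperone that helps the outer ring to assemble, lay on the other side, at 15.5 and 12.1 RPKM. Its log2 ratio of -0.33 was the lowest of all proteasome genes, but the counting interval of its ratio, 0.780 (0.485 to 1.25), held 1. That interval can also be too wide, since at least 45 and 34 reads imply a gene of 123 bp.

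Of 4 inducible or thymic core genes, 3 had an entry and were listed at or near 0, unlike the inducible activator. PSMB10 was not analysed here. Whether a listed 0 means no expression was not tested. PSMB8 and PSMB9 replace constitutive protease subunits in the immunoproteasome of immune cells and interferon-treated cells, and PSMB11 does so in the thymus. PSMB8 (ENSSSCG00000026951) and PSMB11 were listed at 0 in both libraries. PSMB9 (ENSSSCG00000001463) stood at 0.200 and 0.414 RPKM (reads of at least 2 and 4), a ratio of 2.07 with an interval from 0.296 to 22.8, so no difference was detectable at this depth. In the RefSeq gene order of Sscrofa11.1, PSMB8, PSMB9 and the peptide transporter genes TAP1 and TAP2 are neighbours in the major histocompatibility complex. TAP1 was also listed at 0 in both libraries, and TAP2 stood at 0.453 and 0.368 RPKM. BRD2, the next gene after PSMB9 in that order, stood at 46.3 and 49.3 RPKM. BRD2 was singled out after its value was seen. PSMC3IP stood at 0.324 and 0.201 RPKM, with reads of at least 5 and 3.

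Over all 23 proteasome genes compared, the difference between the libraries was small and mostly to the higher side. The median log2 ratio was 0.12, against 0.05 over all genes compared. A log2 ratio above 0 was seen for 17 genes (73.9%), against 58.8% of all genes compared. The counting interval lay above 1 for 12 genes (52.2%), against 20.1% of all genes with an interval, and below 1 for PSMD3 alone (4.35%), against 10.2%. Genes with many reads pass this rule more easily, and among all genes whose mean RPKM reached 10 the shares were 25.7% and 17.3%, with 55.5% above 0. Of the 22 proteasome genes in that range, 16 lay above 0, and the interval lay above 1 for 12 and below for 1. By the fold rule, 1 gene was at least 1.2-fold higher on the log2(RPKM + 1) scale, PSME1, against 17.5% of all genes. PSMD14, at 0.26, missed that line of 0.263 narrowly. PSMG3 alone was at least 1.2-fold lower, against 10.5%. None was at least 1.5-fold apart in either direction, against 3.44% higher and 2.37% lower of all genes, of which 0.629% and 0.584% were at least 2-fold apart. Among the 3984 genes whose mean RPKM reached 10, 392 were at least 1.2-fold higher and 284 lower. At 1.5-fold these counts were 46 and 43. Of the 22 proteasome genes in that range, 1 was at least 1.2-fold higher and 1 lower, and none passed 1.5-fold. Above the median log2 ratio of all genes lay 15 of the 23, against 50.0%.

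The scaling bears on these counts. As deposited, 2312 genes in all passed the 1.2-fold line on the higher side and 1382 on the lower, but 1746 and 1820 after centring on the median. Centring left the proteasome median at 0.073 with 15 genes above 0. All genes had a median RPKM ratio of 1.04, and measured against that ratio in place of 1, the interval lay above for 6 proteasome genes (26.1%; 14.0% of all genes) and below for 2 (8.70%; 14.8%). The 6 were PSMC5, PSMC6, PSMD11, PSMD12, PSME1 and PSME4, and the 2 were PSMB7 and PSMD3. Summed RPKM was 1048 at 22 °C and 1100 at 30 °C over the 23 genes, a ratio of 1.05, which was 1.01 after trimmed mean rescaling. By part, the 19S sum went from 729 to 765 RPKM (ratio 1.05) and the sum of the activators from 95.5 to 110 (1.15). The sum of the 4 measured 20S genes had a ratio of 1.02. Within it, the outer-ring genes had a ratio of 1.06 and PSMB7, the only measured gene of 7 constitutive inner-ring genes, 0.969. The sum over all genes compared had a ratio of 0.976.

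**Figure D2:**
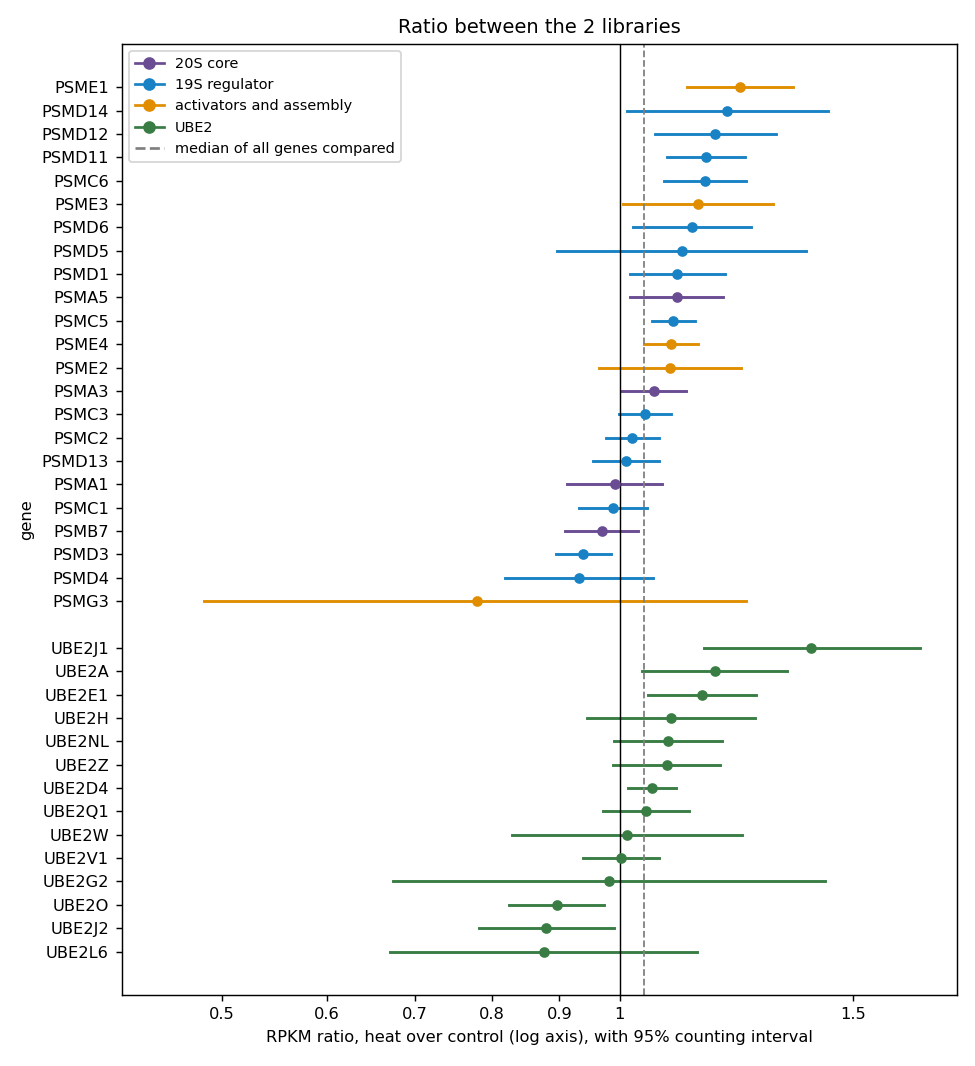
RPKM ratio, heat over control (log axis), of the 37 members compared, with 95% counting intervals as bars and colours for the structural class. The solid line marks equal RPKM and the dashed line the median ratio of all genes, 1.04. PSME1 at 1.23 and UBE2J1 at 1.396 lead their families, and the long bar of PSMG3 shows how few reads could be recovered for it.

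Of the UBE2 genes, 14 of 16 were compared, 10 with a log2 ratio above 0 and 4 below. Near-identical relatives can share reads, so UBE2D4, UBE2A, UBE2V1 and UBE2NL are uncertain as single genes. UBE2D4 (ENSSSCG00000016722), of the family that starts ubiquitin chains with many ligases, was the most abundant member, at 126 RPKM at 22 °C and 134 at 30 °C, a ratio of 1.06 (1.01 to 1.103). UBE2E1, of a related family, stood at 29.1 and 33.6 RPKM, a ratio of 1.15 (1.05 to 1.27). UBE2A (ENSSSCG00000012621), the RAD6 homologue that ubiquitinates histones and works with the N-end rule ligases, stood at 21.4 and 25.3 RPKM, a ratio of 1.18 (1.04 to 1.34). The intervals of all of these enzymes lay above 1, as did those of 20.1% of all genes. Only that of UBE2E1 lay above the median ratio of all genes, 1.0425, as did those of 14.0% of all genes.

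The enzymes anchored to or working at the endoplasmic reticulum differed from each other. They pass ubiquitin to misfolded proteins that are drawn out of that compartment. UBE2J1 (ENSSSCG00000004317) had the highest ratio of all members compared, 1.396 (1.16 to 1.69), from 4.97 RPKM at 22 °C to 6.93 at 30 °C, on at least 199 and 269 reads. It was the only 1 of the 14 UBE2 genes compared that was at least 1.2-fold higher, against 17.5% of all genes. None of the 14 was at least 1.2-fold lower, against 10.5% of all genes. UBE2J2 (ENSSSCG00000003334), its membrane-anchored relative, lay on the other side, at 19.6 and 17.3 RPKM, a ratio of 0.880 (0.782 to 0.989). The level of UBE2J2 was thus 3.95 times that of UBE2J1 in the control library and 2.49 times in the heat library. UBE2G2, which builds degradation chains at the same membrane, stood at 6.14 and 6.03 RPKM, a ratio of 0.982 (0.673 to 1.43).

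**Figure D3:**
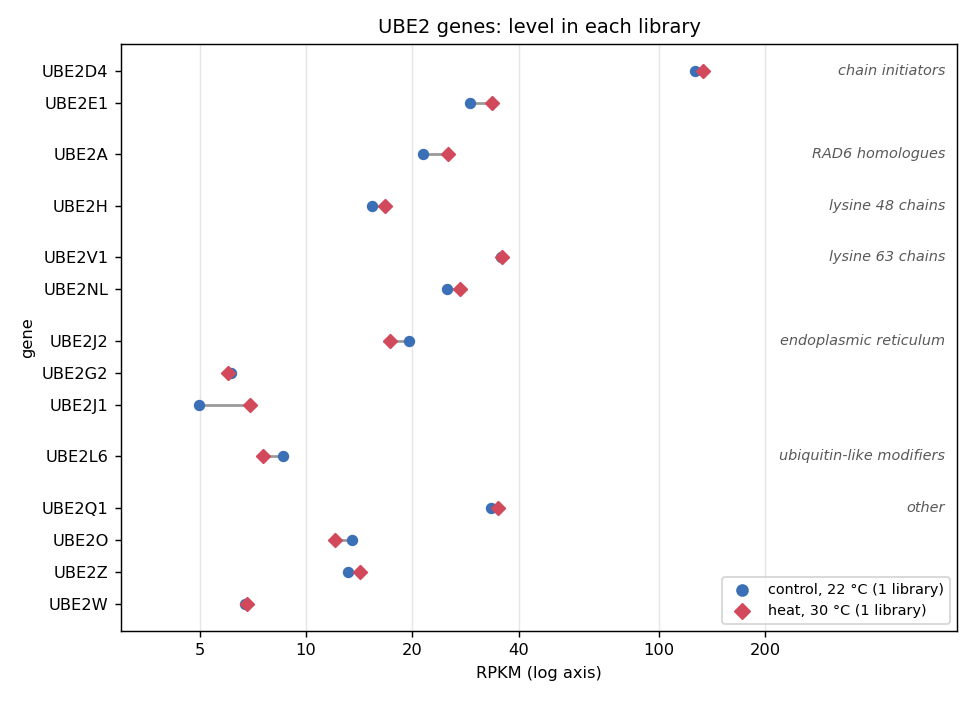
RPKM (log axis) of the 14 UBE2 genes whose mean RPKM reached 1, in the control library (blue circle) and the heat library (red diamond), by role. UBE2D4 stands apart in level at 126 and 134 RPKM, while UBE2J1, at 4.97 and 6.93, has the widest gap between the libraries.

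The enzymes of signalling chains and of small modifiers showed no difference beyond counting error. UBE2V1, the inactive partner needed to build chains used in signalling, stood at 35.7 and 35.8 RPKM (ratio 1.002). UBE2NL, named for its likeness to the active partner UBE2N, stood at 25.2 and 27.4 RPKM (1.09). UBE2L6, which attaches the interferon-induced modifier ISG15, stood at 8.61 and 7.54 RPKM, a ratio of 0.876 (0.670 to 1.14). UBE2H, which works with the CTLH ligase, stood at 15.4 and 16.8 RPKM (1.09). UBE2O (ENSSSCG00000029901), a large enzyme that joins conjugation and ligation in one chain, was lower in the heat library, at 13.5 and 12.1 RPKM, a ratio of 0.896 (0.824 to 0.973). UBE2Q1 stood at 33.5 and 35.0 RPKM (1.05), UBE2W, which tags the amino terminus, at 6.71 and 6.80 (1.01), and UBE2Z, which works with the E1 enzyme UBA6, at 13.2 and 14.3 (1.09).

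The cell division enzymes were below the filter. UBE2C, the partner of the anaphase-promoting complex, was the member nearest to it, with 1.15 RPKM at 22 °C and 0.534 at 30 °C (reads of at least 29 and 13), a ratio of 0.463 (0.221 to 0.919). UBE2T, of the Fanconi anaemia repair pathway, stood at 0.0279 and 0.0769 RPKM (reads of at least 3 and 8), a ratio of 2.75 (0.661 to 16.1). On the other side of the filter the lowest member was PSMD5.

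Over the 14 UBE2 genes, the median log2 ratio was 0.071, and 10 (71.4%) lay above 0, against 58.8% of all genes. After centring on the median of all genes the median was 0.022, with 8 above 0 and 6 below, and after trimmed mean rescaling it was 0.012. The counting interval lay above 1 for UBE2D4, UBE2E1, UBE2A and UBE2J1 (28.6%, against 20.1% of all genes) and below 1 for UBE2J2 and UBE2O (14.3%, against 10.2%). For the 10 UBE2 genes whose mean RPKM reached 10 these shares were 30% and 20%, against 25.7% and 17.3% of all genes in that range. Against the median ratio of all genes the interval lay above for 2 of the 14 (14.3%, against 14.0% of all genes) and below for 2 (14.3%, against 14.8%), both near the share of all genes. The summed level went from 359 to 378 RPKM, a ratio of 1.05, nearly that of the proteasome genes, and was 1.01 after trimmed mean rescaling.

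**Figure D4:**
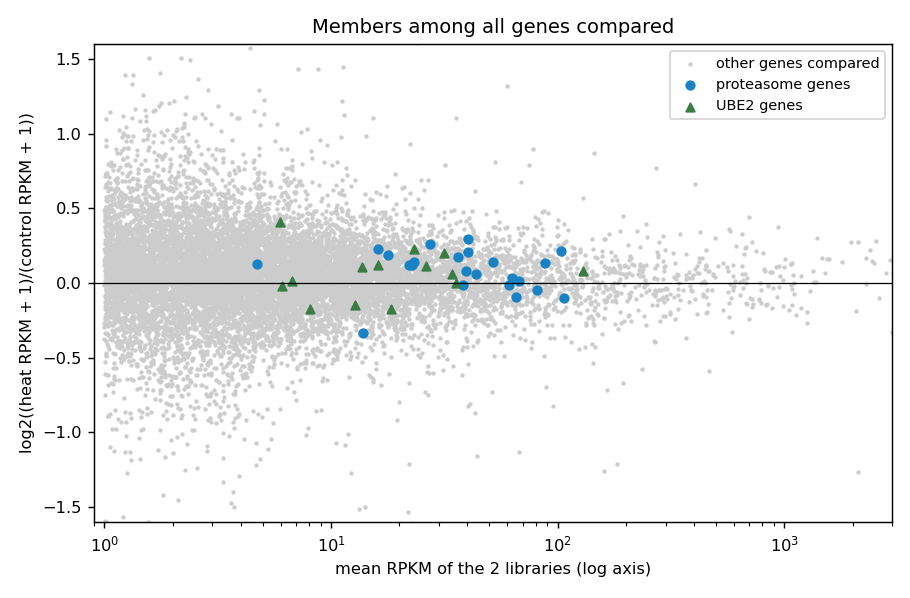
Log2((heat RPKM + 1)/(control RPKM + 1)) against mean RPKM (log axis) for the genes compared, with the proteasome genes as blue circles and the UBE2 genes as green triangles; 69 genes outside the drawn range are not shown. All 37 members lie between -0.33 and 0.41, inside the cloud of the other genes.

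Genes around the proteasome and the E2 enzymes were taken from fixed lists, whose counts above 0 stand against 58.8% of all genes and a median of 0.05. Of 4 measured proteasome partners, all had a log2 ratio above 0, with a median of 0.21. The interval lay above the median ratio of all genes for 2 of the 3 that had one (66.7%, against 14.0% of all genes). PAAF1 (ENSSSCG00000014831), which binds free cap ATPases and holds them apart from the core, stood at 2.51 RPKM at 22 °C and 4.93 at 30 °C, a ratio of 1.97 (1.53 to 2.54). Its log2 ratio of 0.76 was above that of every member compared. ECPAS, a scaffold that tethers proteasomes, stood at 44.5 and 52.2 RPKM (log2 ratio 0.23). UCHL5, a deubiquitinase of the cap, stood at 21.7 and 24.9 RPKM, a ratio of 1.15 (1.04 to 1.27), and TXNL1, a cap-bound thioredoxin, at 56.9 and 63.7, a ratio of 1.12 (0.992 to 1.26).

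Upstream of conjugation, the E1 enzymes UBA7 and SAE1 were higher in the heat library beyond counting error (40% of those measured, against 20.1% of all genes). The polyubiquitin precursor UBB, at 839 and 884 RPKM, was far more abundant than any proteasome gene. Among 5 measured E1 enzymes and their subunits, 2 lay above 0 with a median of -0.0046. UBA7, the E1 enzyme for ISG15, stood at 5.05 and 6.91 RPKM, a ratio of 1.37 (1.09 to 1.72), and SAE1, of the SUMO pathway, at 12.5 and 14.7, a ratio of 1.17 (1.05 to 1.31). UBA1, the main E1 for ubiquitin, stood at 80.2 and 79.3 RPKM (log2 ratio -0.016). BIRC6, a giant enzyme with its own E2 domain and the only listed E2 without the prefix that was found, stood at 4.91 and 4.96 RPKM.

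Of 11 measured genes that extract and deliver substrates, 10 lay above 0, with a median of 0.088, and the interval lay above 1 for 6 (54.5%, against 20.1% of all genes). Against the median ratio of all genes it lay above for 2 (18.2%, against 14.0%), and 7 of the 11 lay above the median of all genes. The shuttle factor UBQLN1 stood at 17.1 and 21.0 RPKM, a ratio of 1.22 (1.15 to 1.31), and FAF2, which recruits the extracting ATPase to the endoplasmic reticulum, at 2.79 and 3.76, a ratio of 1.35 (1.08 to 1.68). BAG6 stood at 78.7 and 79.7 RPKM (log2 ratio 0.017). Regulators of subunit transcription had a median of -0.0053 over 5 genes. NFE2L1, the factor that raises proteasome genes when the proteasome is blocked, was level at 55.3 and 55.1 RPKM. NFE2L2, its relative of the oxidative response, stood at 23.4 and 25.03 RPKM and NFYC at 29.2 and 30.7, while NFYA stood at 1.77 and 1.56 and NFYB at 4.27 and 3.35, a ratio of 0.784 (0.644 to 0.952).

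Antigen processing genes on the interferon side showed no difference beyond counting error. The factor IRF1 stood at 4.67 and 5.42 RPKM (log2 ratio 0.18), the modifier UBD at 9.28 and 10.5 (0.17), the peptidase ERAP1 at 4.49 and 4.89 (0.10) and the peptide loading factor TAPBP at 13.5 and 11.9 (-0.17). Only 6 of the 11 listed were found. Of 14 muscle ubiquitin ligases 8 lay above 0 (57.1%, near the 58.8% of all genes), with a median of 0.014. Against the median ratio of all genes the interval lay above for 4 (28.6%, against 14.0% of all genes) and below for 5 (35.7%, against 14.8%). FBXO32 (atrogin-1), at 19.96 and 31.3 RPKM, a ratio of 1.57 (1.45 to 1.704), and UBR1, an N-end rule ligase, at 7.58 and 9.20, a ratio of 1.21 (1.13 to 1.31), were the highest. TRIM32, at 4.71 and 4.08 RPKM, a ratio of 0.865 (0.725 to 1.03), and HUWE1, at 59.7 and 53.3, a ratio of 0.893 (0.858 to 0.931), were the lowest.

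**Figure D5:**
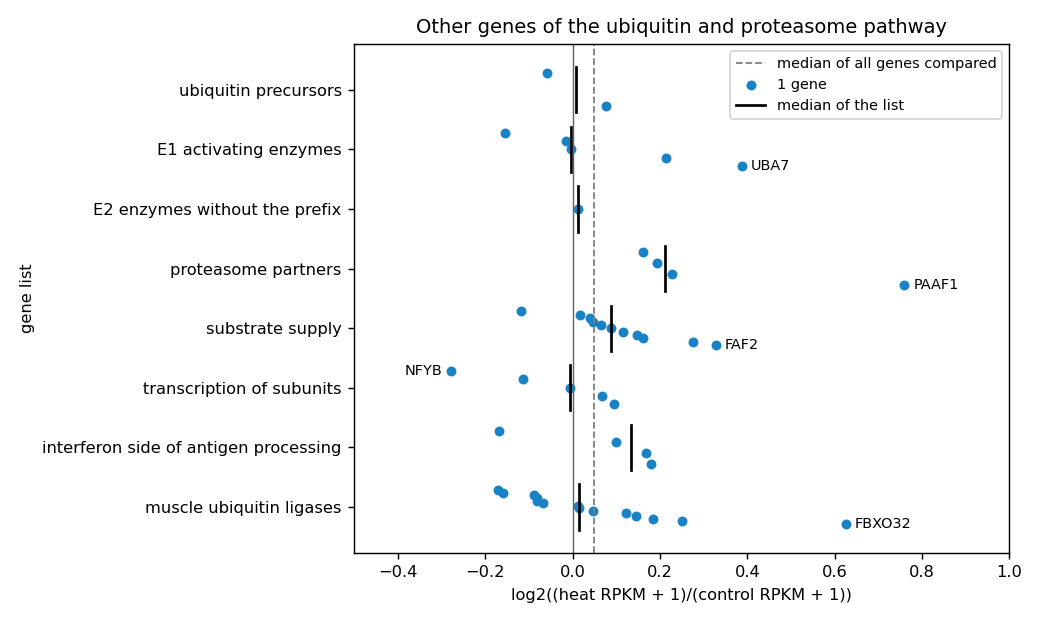
Log2((heat RPKM + 1)/(control RPKM + 1)) of the measured genes of each fixed list (points, mean RPKM of 1 or more), with the list median (black bar) and the median of all genes, 0.05 (dashed line); the most distant gene of a list is named where it lies beyond 0.26. PAAF1 (0.76) and FBXO32 (0.63) stand far from the other points.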

How the data were processed

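The authors deposited 1 RPKM value per gene and library, per the labels and the file headers. Bowtie, TopHat 1.4.0, Cufflinks 1.3.0 and Sscrofa10.2 are named without roles, per the submitters' processing notes. The counter, gene lengths and treatment of reads with several matches are not given in the sources used here. Libraries were made from poly(A) RNA with random priming and PCR, per the labels' protocols, which describe no strand marking and no molecular identifiers, so reads are not independent molecules.

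Symbols came from a table of Ensembl identifiers (11374 entries matched). The RPKM ratio of a gene is a ratio of whole reads times a fixed library factor. With the factor 1.03, 99.9% of 13134 low entries gave whole pairs of at most 1000 reads, and 0.0381% did with a wrong factor. Totals were set so that most gene lengths came out whole, 83.1% of 4736 scanned at the total used and 41.4% at its double. Pairs were raised to the smallest multiple with a whole length, which can still fall short of the true reads. The simulation below did not cover the totals or the multiples. On simulated reads 100% of 4000 pairs were recovered up to a common factor. A pseudocount of 1 and a floor of 1 on the mean RPKM were used, and no test was made. Other pseudocounts, floors, folds, rescalings and interval rules were tried. Python 3.11.15 and scipy 1.17.1 were used.

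All members with values were named, and from each list its 2 highest and 2 lowest genes. Some of these list genes are not reported here, though they remain in the counts and medians. UBE2G2 also belongs to the chain-building role. The members and lists were chosen with earlier results of these data known. Promoters and proteins were not analysed here. Only gene order was taken from the RefSeq table of Sscrofa11.1.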

Additional observations from a re-analysis of the deposited data

How the results depend on the processing

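No paired analysis was possible because either arm is a single library. The median log2 ratio of the proteasome and UBE2 genes, their counts above 0 and their summed ratios kept their direction in the alternatives run on them, and no gene past 1.2-fold turned direction. The medians were smaller when centred or rescaled by the trimmed mean: the proteasome median of 0.12 became 0.073 and 0.065, and the UBE2 median of 0.071 became 0.022 and 0.012. PSMC2, PSMD13, UBE2V1 and UBE2W, all close to 0, changed sign when centred on the median or rescaled by the trimmed mean. The proteasome count at least 1.2-fold higher (1) became 2 with a pseudocount of 0.1 or when rescaled without the 10 highest genes, 0 when centred or rescaled by the trimmed mean, 12 by a counting interval above 1 and 6 by one above the median ratio. The count lower (1) was 0 with a pseudocount of 5 and 2 by an interval below the median ratio. For UBE2, the count higher (1) was 0 with a pseudocount of 5 or a floor of 10 on the mean RPKM, 4 by the interval and 2 by the interval against the median ratio. The count lower (0) was 1 with no filter (UBE2C) or without the 10 highest genes, and 2 by either interval. A fold of 1.5 or 2 left 0 in each. All genes at least 1.2-fold higher and lower (2312 and 1382) turned to 1746 and 1820 when centred and 1732 and 1788 under the trimmed mean, and were 749 and 517 with a pseudocount of 5, 3757 and 2158 with no filter, 734 and 509 with a floor of 5 on the mean RPKM, 392 and 284 with a floor of 10, 454 and 313 at 1.5-fold and 83 and 77 at 2-fold. Apart from fewer or more genes under another filter or fold, the cause was not tested. That floor of 10 and the interval against the median ratio were chosen after seeing the data. Depth limits short and scarce genes most: a single read per kb of gene is worth 0.0424 RPKM in the control library.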

Other observations

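The genes next to the activator pair were read in the RefSeq gene order of Sscrofa11.1, after the values of PSME1 and PSME2 had been seen. IRF9, PSME2, EMC9 and PSME1 follow each other there. IRF9, a subunit of the interferon-activated transcription factor, stood at 14.0 RPKM at 22 °C and 19.1 at 30 °C (log2 ratio 0.43). EMC9, which lies between the activator genes and belongs to a membrane insertion complex, stood at 18.3 and 18.1 RPKM (-0.021). FITM1, the next gene after PSME1 and a lipid droplet protein of muscle, stood at 103 and 105 RPKM (0.033).

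The class II genes of the histocompatibility complex beyond BRD2 were measured where PSMB8 and TAP1 were listed at 0. SLA-DMB stood at 6.47 RPKM at 22 °C and 8.23 at 30 °C, SLA-DMA at 12.3 and 11.6, and SLA-DOA at 1.01 and 1.74. Both SLA-DMA and SLA-DMB help to load peptides in antigen presenting cells.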
